A study of Homo sapiens with 2 samples.

Results

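The 30 genes described here act in G2 and mitosis: the cyclins and kinase that drive entry, the checkpoint kinases, the kinetochore, the spindle and the machinery of cytokinesis. They were chosen by name from textbook roles, with earlier results of these data known. All 30 were among the 15603 genes of the deposited table and passed the filter of 1 FPKM in either library. FPKM are fragments per kilobase of transcript, scaled to depth, so levels can be compared between genes. The samples were 2 cultures of A172, an established human glioblastoma line, with 1 RNA library each. The parental library came from the line labelled as kept without temozolomide (TMZ), an alkylating drug used against this tumour, and the resistant library from clone A172R6, selected with TMZ and labelled as kept with it. Clone, selection and drug differ together and cannot be told apart, and a clone is a single lineage of the line. With 1 library a group there was no replicate spread, no difference below was tested, and "lower" and "higher" describe these 2 libraries only.

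The genes of this group are switched on together late in the cell cycle. Their promoters often hold the cell cycle genes homology region (CHR), read by MuvB complexes, and CCAAT boxes bound by the activator NF-Y. In resting cells MuvB joins E2F4 and a pocket protein in the DREAM repressor, and in dividing cells it joins B-MYB and FOXM1, which activate the same genes. Cyclin B with CDK1 then drives mitotic entry, the checkpoint kinases hold the anaphase-promoting complex until chromosomes are attached, and CDC20 lets it act. In tumours such as glioblastoma, this set is widely read as a sign of how many cells divide.

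Because the members share this control, their promoters were read for 2 sets of letters, each on both strands. The first was TTTGAA, a form of the CHR. The second was CCAAT, which reads ATTGG on the opposite strand. RefSeq windows (GRCh38.p14, 250 bases before to 50 after the start) matched 25 members, with 2 windows each for CDK1 and AURKB. AURKA, BIRC5, TPX2, TTK and UBE2C had no matched window. TTTGAA was held by 19 of the 25 members, against 13.7% of the 9564 tested genes with a window and 15.2% of all 35116 windows. CCAAT was held by 20 of 25, against 43.7% of tested genes and 34.6% of all windows, and both by 15 of 25, against 5.78% and 5.90%. Before the start, TTTGAA lay closer to it (median 29 bases) than CCAAT (median 87 bases). The variant TTCGAA was held by 2 of 25 (BUB1 and NDC80), against 2.43% of tested genes. A match describes letters and not a bound site.

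The stretches below show a range of arrangements, from the member furthest below its parental level to the 2 furthest above, and begin 120 bases before the RefSeq start. They end at the base before that start, or earlier where an exon of a listed gene begins, and both sets of letters are in capitals, on either strand. MKI67 (chr10:128126424-128126543, minus strand) holds TTTGAA at 47 and 29 bases before the start, the latter sharing its last base with a CCAAT box on the other strand. KIF11 (chr10:92593010-92593129, plus) and CDC20 (chr1:43358861-43358954, plus) hold both sets. CENPF (chr1:214603075-214603194, plus) holds 3 CCAAT boxes here and TTTGAA only at 40 bases after its start, outside the stretch. In ASPM (chr1:197146695-197146789, minus) TTTGAA lies upstream of both boxes shown. CCNA2 (chr4:121823934-121824003, minus) holds 1 CCAAT box and no TTTGAA, and CENPE (chr4:103198410-103198463, minus) holds neither in its whole window.
MKI67: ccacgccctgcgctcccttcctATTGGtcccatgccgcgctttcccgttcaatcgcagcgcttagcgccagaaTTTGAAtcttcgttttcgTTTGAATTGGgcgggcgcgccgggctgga
KIF11: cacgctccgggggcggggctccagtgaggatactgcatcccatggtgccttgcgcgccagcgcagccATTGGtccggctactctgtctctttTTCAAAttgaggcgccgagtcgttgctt
CDC20: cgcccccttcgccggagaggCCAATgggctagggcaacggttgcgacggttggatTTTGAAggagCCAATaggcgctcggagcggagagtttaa
CENPF: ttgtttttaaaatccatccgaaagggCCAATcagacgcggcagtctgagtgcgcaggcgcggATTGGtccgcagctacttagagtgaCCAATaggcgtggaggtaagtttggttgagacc
ASPM: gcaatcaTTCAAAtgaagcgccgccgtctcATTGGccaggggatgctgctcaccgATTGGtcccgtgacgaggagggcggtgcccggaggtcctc
CCNA2: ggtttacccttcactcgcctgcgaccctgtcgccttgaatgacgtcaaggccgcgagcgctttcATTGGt
CENPE: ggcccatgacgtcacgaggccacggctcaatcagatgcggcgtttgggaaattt

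**Figure D1:**
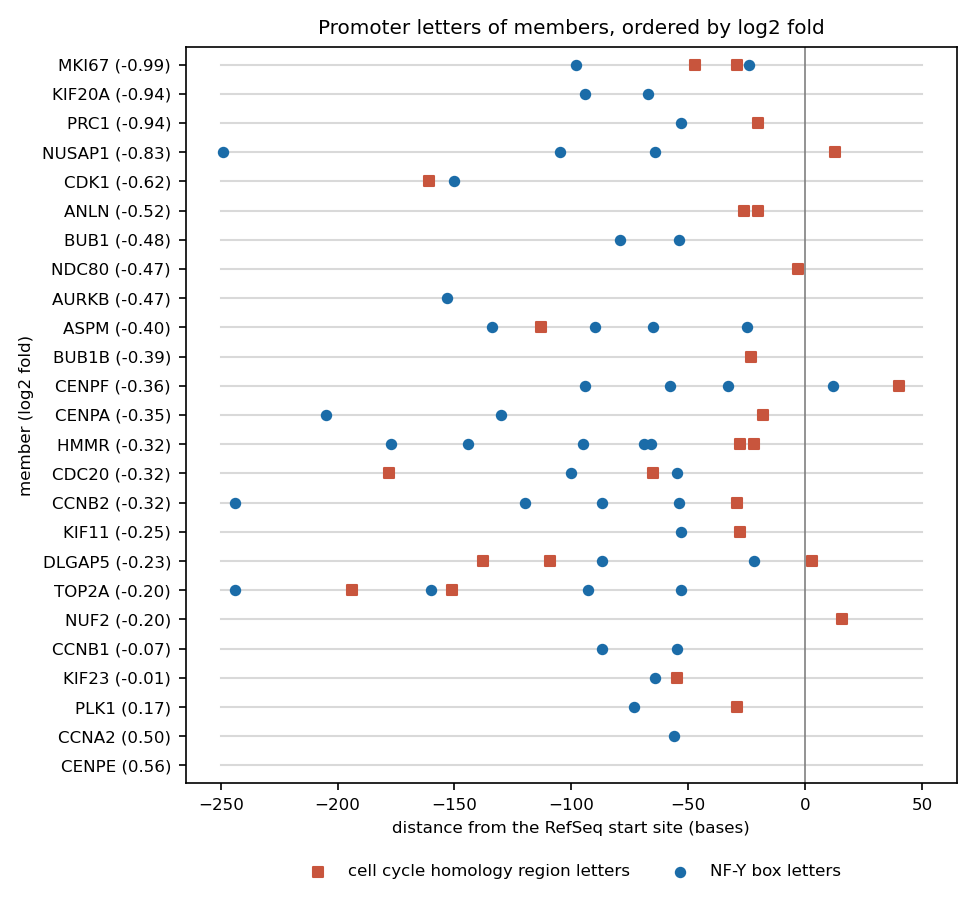
Distance from the RefSeq start site, in bases, of TTTGAA (squares, labelled as the cell cycle homology region) and CCAAT (circles, labelled as the NF-Y box) for the 25 members with a window, ordered from the lowest to the highest log2 fold, with the first window shown for CDK1 and AURKB. Most squares sit near the start and most circles upstream of them, and CENPE, at the bottom, has neither.

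The question of the comparison is which genes differ in level between the line and its resistant clone. The mitotic genes as a set sat slightly lower in the resistant library. Of the 30 members, 24 had a log2 fold below 0, where 46.7% of the 13937 tested genes did. Here the log2 fold is that of (resistant FPKM + 1) over (parental FPKM + 1). The members' median was -0.32 (middle range -0.47 to -0.07), against 0.04 over all tested genes. Among the 7615 tested genes within the members' range of mean FPKM the median was 0.07, and 43.1% lay below 0. The members' FPKM came to a sum of 746 in the parental line and 601 in the clone, 80.6% of the parental sum, while the FPKM of all tested genes summed to 108% of it. In bulk RNA, fewer cells in G2 and mitosis and less of these RNAs per cell cannot be told apart.

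The difference was small for single genes. With the pseudocount of 1, no member reached a 2-fold difference, where 3.82% of tested genes were at least 2-fold lower and 4.59% at least 2-fold higher. By the plain FPKM ratio 2 members were 2-fold lower, MKI67 and KIF20A, where 7.40% of tested genes were, and with the libraries scaled to the same sum 3 were, these and PRC1, where 4.64% of tested genes were. At 1.5-fold, 5 of 30 members were lower, 16.7%, beside 12.0% of all tested genes, and none was higher, against 14.5%. Of the 7615 tested genes within the members' range of mean FPKM, 665 (8.73%) were 1.5-fold lower and 1054 higher. In that range 179 were 2-fold lower and 312 higher. By the plain FPKM ratio 1 member, CENPE, was 1.5-fold higher. The 5 lower members were MKI67, KIF20A, PRC1, NUSAP1 and CDK1. CDK1 (log2 fold -0.62) lay just past that threshold and ANLN (-0.52) just short of it. By the q-value of the authors' deposited table, 3 members were lower at 0.05: PRC1 (0.00214), MKI67 (0.0155) and NUSAP1 (0.0317). That is 3 of 30 beside 4.07% of tested genes, and no member was higher at that threshold, beside 5.42%. The q-values come from a comparison of 2 libraries and do not test the conditions.

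**Figure D2:**
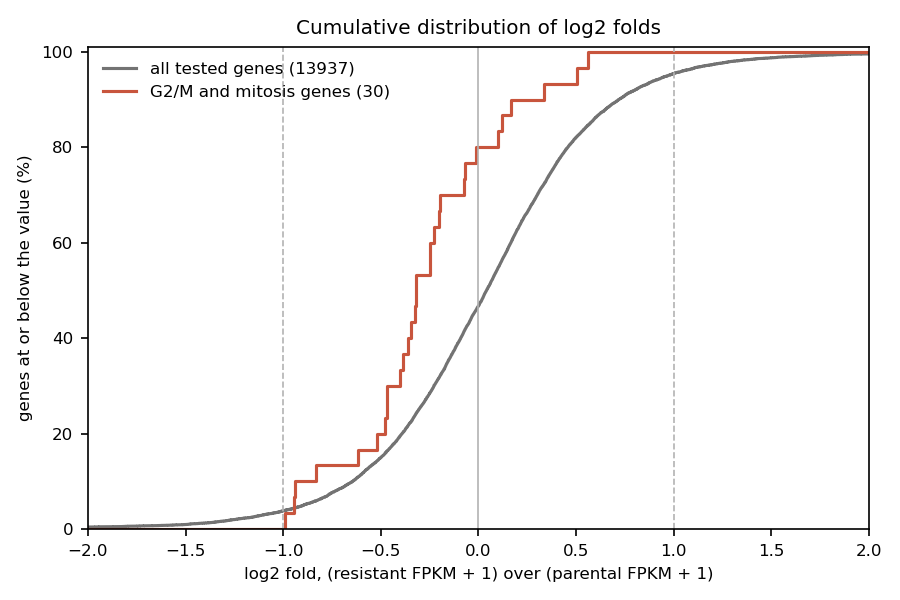
Cumulative share of genes, in percent, at or below each log2 fold of (resistant FPKM + 1) over (parental FPKM + 1), for the 30 members and the 13937 tested genes. Dashed lines mark 2-fold, and folds beyond 4-fold lie outside the axis. The members' curve runs to the left of the other, crosses the middle at -0.32 and stays inside the dashed lines.

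The chromosome genes included the lowest log2 fold of all. MKI67 encodes Ki-67, the coat protein of mitotic chromosomes used in pathology to count dividing cells. MKI67 (ENSG00000148773, chromosome 10, 128096659 to 128126385, GRCh38, minus strand) had 10.6 FPKM in the parental line and 4.85 in the clone (log2 fold -0.99). It ranked the 25th most abundant of the 30 in the parental library and the 30th in the resistant one, and 3.90% of tested genes had a lower fold. TOP2A, the topoisomerase that untangles sister chromatids, differed little, with 41.1 and 35.6 FPKM (-0.20).

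The entry engine was split between the kinase and its cyclins. CDK1 had 53.0 FPKM in the parental line and 34.2 in the clone (log2 fold -0.62). Its mitotic partners were nearer their parental levels, CCNB1 with 47.5 and 45.2 (-0.07) and CCNB2 with 18.9 and 14.95 (-0.32). CCNA2, which encodes the cyclin of S phase and G2, went the other way. CCNA2 (ENSG00000145386, chromosome 4, 121816444 to 121823933) had 10.5 FPKM in the parental line and 15.4 in the clone (0.50). It shares 254 exonic bases with EXOSC9 on the opposite strand, which had 17.7 and 12.9 FPKM. Whether strand was used in counting is not given in the sources used here, so the value of CCNA2 is uncertain. The same holds for the other members named below that share exonic bases on the opposite strand.

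Of the 6 mitotic and checkpoint kinases, 5 were lower and all stayed within 1.5-fold. BUB1 and BUB1B, which act at unattached kinetochores, had 22.3 and 15.8 FPKM (log2 fold -0.48) and 9.48 and 7.02 FPKM (-0.39). AURKB, the kinase of the chromosomal passenger complex, had 24.2 and 17.2 (-0.47). TTK, the MPS1 kinase that starts the checkpoint, had 12.3 and 10.2 (-0.25). The centrosomal kinase AURKA was almost level, with 26.5 and 25.2 FPKM (-0.07). PLK1, which AURKA activates, was the only kinase with a higher value in the resistant library, 16.4 against 18.5 (0.17). The cofactors of the anaphase-promoting complex differed in sign, with its activator CDC20 at 28.4 and 22.5 FPKM (-0.32) and its conjugating enzyme UBE2C at 15.6 and 19.9 (0.34).

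Kinetochore members were mostly lower. NDC80 and NUF2, partners in the complex that grips microtubules, had 19.7 and 14.0 FPKM (log2 fold -0.47) and 13.2 and 11.4 FPKM (-0.20). CENPF, a large protein of the outer kinetochore, had 35.9 and 27.8 (-0.36). CENPA, the centromere's histone H3, had 21.4 and 16.6 (-0.35). Its value is uncertain too, since it shares 138 exonic bases on the same strand with SLC35F6, at 29.4 and 49.5 FPKM. CENPE, the kinesin that carries chromosomes to the spindle's middle, had the highest log2 fold of the 30. CENPE (ENSG00000138778, chromosome 4, 103105806 to 103198409) had 4.47 FPKM in the parental line and 7.06 in the clone (0.56), and it was the least abundant member in the parental library. BIRC5, survivin of the passenger complex, had 21.5 and 23.4 (0.12). Its partners in that complex, INCENP (6.99 and 5.88 FPKM) and CDCA8 (5.94 and 7.49), were chosen after their values were seen and also differed in sign.

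Among spindle genes NUSAP1 stood lowest. NUSAP1, a bundler of spindle microtubules (ENSG00000137804, chromosome 15, 41332694 to 41381050), had 33.2 FPKM in the parental line and 18.2 in the clone (log2 fold -0.83). The motor KIF11, which pushes spindle poles apart, had 18.3 and 15.2 (-0.25), and the spindle pole protein ASPM had 22.4 and 16.7 (-0.40). The other lower members were the microtubule binders HMMR, with 10.3 and 8.02 (-0.32), and DLGAP5, with 8.09 and 6.75 (-0.23). TPX2, which activates AURKA on the spindle, was the most abundant member in the resistant library, with 46.1 FPKM in the parental line and 49.6 in the clone (0.10). The sign for TPX2 changed to -0.01 when the libraries were scaled to the same sum.

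The genes of the central spindle and cytokinesis had the lowest sum relative to the parental line of the 7 role groups, 64.7%, and all 4 were lower. PRC1 bundles the antiparallel microtubules of the midzone, KIF20A carries the passenger complex there, and ANLN builds the contractile ring. PRC1 (ENSG00000198901, chromosome 15, 90966038 to 90995629) had 50.4 FPKM in the parental line and 25.8 in the clone (log2 fold -0.94). KIF20A (ENSG00000112984, chromosome 5, 138178719 to 138187715) had 19.2 and 9.47 FPKM (-0.94). It shares 132 exonic bases with BRD8 (18.1 and 19.8 FPKM) and 68 with CDC23 (30.3 and 26.7), both on the opposite strand. ANLN, the most abundant member in the parental library, had 65.9 and 45.7 (-0.52), and KIF23, a motor of the same midzone, was level, with 19.5 and 19.3 (-0.01).

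**Figure D3:**
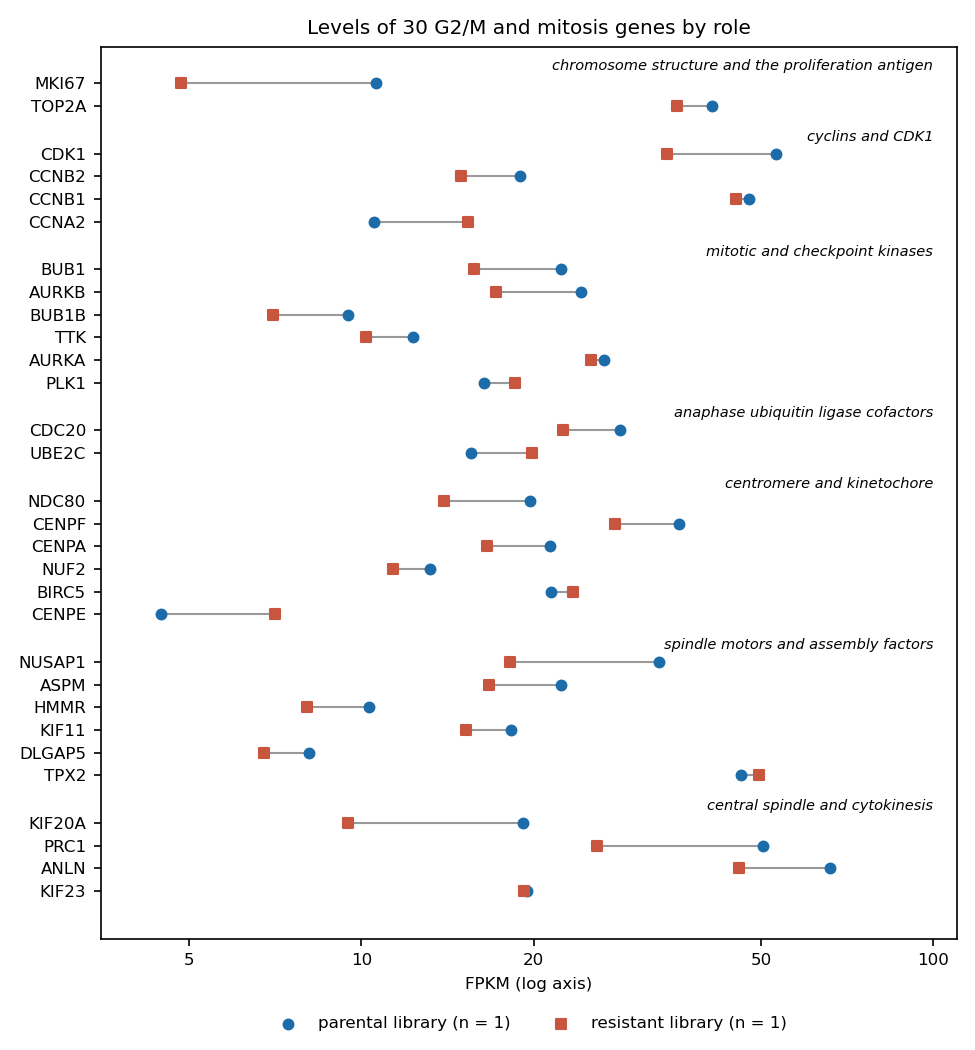
FPKM, on a log axis, of the 30 members in the parental (circles) and resistant (squares) library, 1 library each, grouped by role with a line joining the values of a gene. Squares lie to the left of circles for 24 genes, furthest for MKI67, KIF20A and PRC1, and to the right for CENPE, CCNA2, UBE2C, PLK1, BIRC5 and TPX2.

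The order of abundance was largely kept. Across the 30 members the levels of the 2 libraries had a Spearman correlation of 0.88 (members are not replicates). The log2 fold had a weak relation to mean FPKM (Spearman -0.12) and to exonic length (-0.22). Apart from CENPA and KIF20A, whose exons meet other listed genes, CCNA2, NUF2, KIF23 and ANLN shared exonic bases with a listed gene on the opposite strand. The 24 members without any such overlap had the same median, -0.32. Pseudogenes named after 7 members are annotated in GENCODE 29, 11 copies in all, of which 4 are copies of UBE2C. None of these copies was listed, and they could share reads.

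The folds varied with location. The members lie on 13 chromosomes, and those of chromosome 15 (5 members), 1 (4), 5 (3) and 10 (3) were all lower. The 2 on chromosome 4, CCNA2 and CENPE, were both higher, as were UBE2C and TPX2 of the 3 on chromosome 20. The other tested genes had a median log2 fold of 0.14 on chromosomes 4 and 20 and of -0.12 on chromosome 15. On chromosomes 1, 5 and 10, where all members were lower, that median was 0.07, 0.09 and 0.003. For each member, the 50 nearest tested genes (25 on each side, fewer near chromosome ends) gave a local median. Across the 30 members the log2 fold and the local median had a Spearman correlation of 0.60 and a Pearson correlation of 0.58. BUB1B and NUSAP1 share part of their windows, and the libraries are the same for both measures. After subtracting the local median 26 of 30 members lay below 0, with a median of -0.31. The same subtraction was not made for all tested genes, so no share stands beside that count.

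MKI67 lies in a stretch of lower genes near the end of 10q. Of its 40 nearest tested genes 35 had a log2 fold below 0, with a median of -0.65, so that MKI67 was -0.34 relative to them. Its nearest listed neighbours were PTPRE (2.83 FPKM in the parental line and 2.57 in the clone) and DOCK1 (7.83 and 3.78) on the side of the centromere, and MGMT, the repair enzyme that removes the TMZ lesion (listed at 0 and 5.16), and GLRX3 (30.4 and 49.2) towards the telomere. The part of location in the folds was not tested. PRC1, NUSAP1 and KIF20A were far from their neighbours, at -0.81, -0.72 and -0.90 relative to the local median. UBE2C was 0.18 and CENPE 0.32 above their own local medians, while CCNA2, in a stretch with a local median of -0.07, was 0.57 above it.

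**Figure D4:**
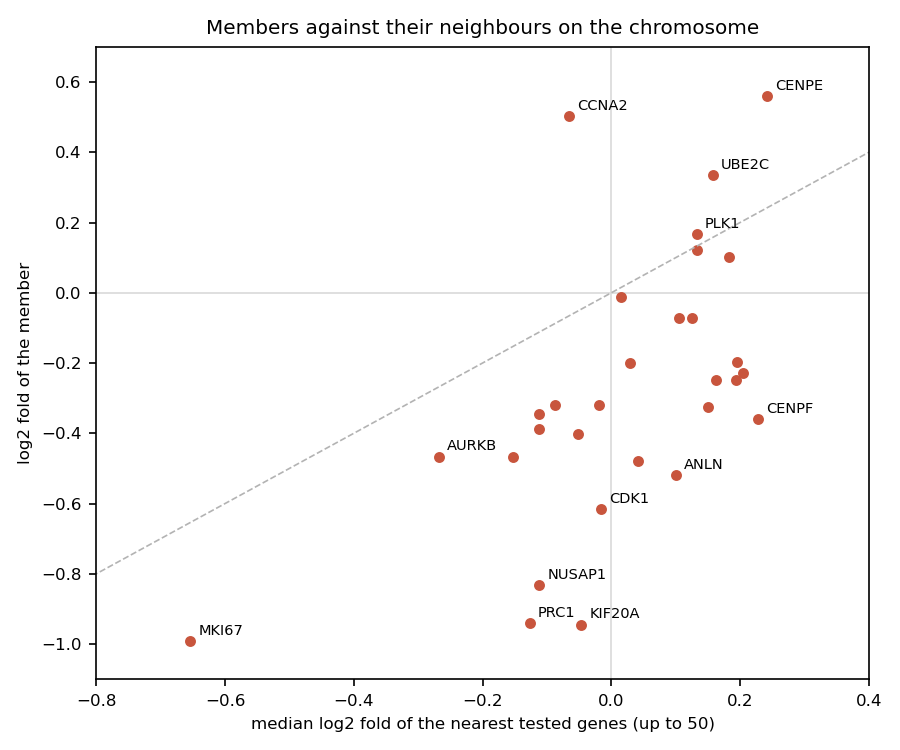
Log2 fold of each of the 30 members against the median log2 fold of its nearest tested genes on the chromosome, up to 50, with a dashed line where both are equal. Most points, 26 of 30, lie below the line, and MKI67 is the point furthest to the left, with a local median of -0.65.

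The letters of the promoters did not divide the members into separate ranges. The 19 members with TTTGAA had log2 folds from -0.99 to 0.17 (median -0.35, 18 below 0). The 6 without it had log2 folds from -0.94 to 0.56 (median -0.27, 4 below 0). The 20 members with CCAAT had a median of -0.34 (18 below 0), and the 5 without it -0.39 (4 below 0). The 15 with both had a median of -0.32 (14 below 0), and the 10 without both -0.43 (8 below 0). KIF20A lacked TTTGAA in its window and was among the lowest, while PLK1 held both sets of letters and was higher.

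Most regulators of the set lay within 1.5-fold of their parental levels. The activators FOXM1 and MYBL2 (B-MYB) had 13.8 and 10.6 FPKM (log2 fold -0.35) and 16.3 and 18.3 (0.15). Among MuvB subunits LIN9 had 4.58 and 3.23, LIN37 7.75 and 5.86, LIN52 2.24 and 2.06, RBBP4 50.9 and 38.2, and LIN54, which binds the CHR, 6.27 and 9.18. The DREAM partners E2F4, RBL1 and RBL2 had 24.9 and 32.1, 2.58 and 2.76, and 26.7 and 22.3 FPKM. In that list of 20 measured genes none was 2-fold lower (3.82% of all tested genes were) and 1 was 2-fold higher (4.59%), E2F7, an atypical E2F that represses cell cycle genes, with 10.3 and 28.9 FPKM (1.40). E2F8, its close relative, was the 1 at least 1.5-fold lower (3.54 and 1.603 FPKM), beside 12.0% of all tested genes, and was named after its values were seen. E2F5, another E2F of the repressor kind, had 8.05 and 11.4.

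The G2 checkpoint list had a median on the other side of 0, with genes of both signs. Its 17 measured genes had a median of 0.44, with 4 at least 2-fold higher (4.59% of all tested genes were) and none 2-fold lower (3.82%). Above 0 lay 12 and below 0 lay 5, where 46.7% of all tested genes lay below 0. Among the 5 were WEE1 (35.4 and 25.6 FPKM) and ATR (15.9 and 13.1). WEE1 and ATR were named after their values were seen. At 1.5-fold 5 were higher (14.5% of all tested genes) and 3 lower (12.0%). GADD45A, a p53 target that restrains CDK1, had 14.2 FPKM in the parental line and 85.9 in the clone (log2 fold 2.51), and the CDK inhibitor CDKN1A had 56.7 and 155 (1.43). The stress kinase PLK3 had 7.97 and 17.4 (1.04), and YWHAG, a 14-3-3 protein named after its values were seen, had 65.0 and 132 (1.01). The other gene 1.5-fold higher was BTG2, a p53 target that slows division (2.75 and 5.87). BTG2 and the 3 lower genes were also named after their values were seen, and the 3 were the damage kinase ATM (26.5 and 16.0) and the checkpoint mediators TOPBP1 (25.02 and 15.3) and CLSPN (7.36 and 3.56), which act upstream of CHK1 or CHK2. Any link between these genes and the mitotic ones was not tested.

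Other mitotic genes lay below 0 more often than not, by less than the members. In 11 further lists, 182 measured genes that are not among the 30 had a median of -0.10. Below 0 lay 116 (63.7%), beside 46.7% of all tested genes. That 46.7% also stands beside the counts of lower genes in each list below, and short lists can differ from it by few genes. Of the 182, 19 (10.4%) were at least 1.5-fold lower, under the 12.0% of all tested genes. At that fold 8 were higher, beside 14.5% of all tested genes. At 2-fold 1 was lower, beside 3.82% of all tested genes, and 1 higher, beside 4.59%. The lower 1 was BORA, an activator of PLK1 named after its values were seen, with 4.13 and 1.44 FPKM. The higher 1 was PLK2, a stress-induced polo-like kinase that was counted in the cytokinesis list, with 72.5 and 158.

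Condensin, which compacts chromosomes, was lower in 7 of 8 genes (median -0.35), with SMC4 at 76.0 and 43.8 FPKM, NCAPH at 9.85 and 5.68 and NCAPD2 at 19.0 and 13.3. Inner and outer kinetochore genes were lower in 22 of 30 (median -0.24), with SPC25, a partner of NDC80, at 9.18 and 4.94, CENPO at 12.7 and 7.04 and CENPN at 22.7 and 14.3. The passenger and shugoshin list had 4 of 6 lower (median -0.27), with SGO1, which protects centromeric cohesion, at 15.8 and 7.45, SGO2 at 7.93 and 6.07 and CDCA2 at 17.8 and 13.9. Mitotic kinesins were lower in 8 of 10 (median -0.19), with KIF18B at 9.30 and 6.10, KIF15 at 5.24 and 3.39 and KIF22 at 29.1 and 21.3.

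The spindle checkpoint list had 7 of 12 lower (median -0.18), with BUB3, which carries BUB1 and BUB1B to kinetochores, at 25.002 and 13.7 FPKM, SPDL1 at 37.4 and 26.4 and ZWILCH at 9.26 and 6.52. Centrosome genes were lower in 10 of 14 (median -0.23), with CEP192 at 20.8 and 11.1, PCNT at 13.4 and 8.09 and CEP135 at 3.38 and 5.58. Mitotic entry genes were lower in 15 of 23 (median -0.13), with CDK2 at 25.7 and 16.6, ENSA at 48.6 and 34.5 and NEK6 at 13.0 and 21.2.

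The medians of 4 lists lay between -0.09 and 0.04, nearest to that of all tested genes. The anaphase-promoting complex had a median of -0.03 over 20 genes, with UBE2S, which extends its ubiquitin chains, at 19.7 and 39.7 FPKM, UBE2D1 at 5.40 and 9.78 and CDC26 at 5.92 and 3.48. Cohesin had -0.06 over 12, with ESCO2 at 5.93 and 3.03, PDS5B at 10.6 and 5.96 and PDS5A at 20.1 and 33.5. Spindle assembly had -0.09 over 29, with HAUS1 at 8.22 and 4.29, PSRC1 at 7.55 and 3.99 and HAUS2 at 7.54 and 12.3. The cytokinesis list, which holds actin and membrane genes used in other processes, had 0.04 over 18 (-0.01 with the libraries scaled to the same median). Its largest differences were those of PLK2 (72.5 and 158), the myosin MYH9 (79.5 and 142) and ECT2 (32.0 and 21.0).

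The nearest set in the cycle, G1/S and DNA replication, had a median close to that of the members. Its 32 genes had a median of -0.28, with 25 below 0, where 46.7% of all tested genes were. None of the 32 was past 2-fold, where 3.82% of all tested genes were lower and 4.59% higher. At least 1.5-fold lower were 6 of them (12.0% of all tested genes were), and 1 was higher (14.5%). Its largest differences among genes of 5 or more FPKM were those of PCNA (66.5 and 33.8 FPKM), RRM1 (54.7 and 30.9) and CDC45 (7.03 and 3.76). The 1 higher gene, named after its values were seen, was the origin licensing factor CDC6 (9.63 and 16.6). No difference between this list and the 30 members was tested.

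**Figure D5:**
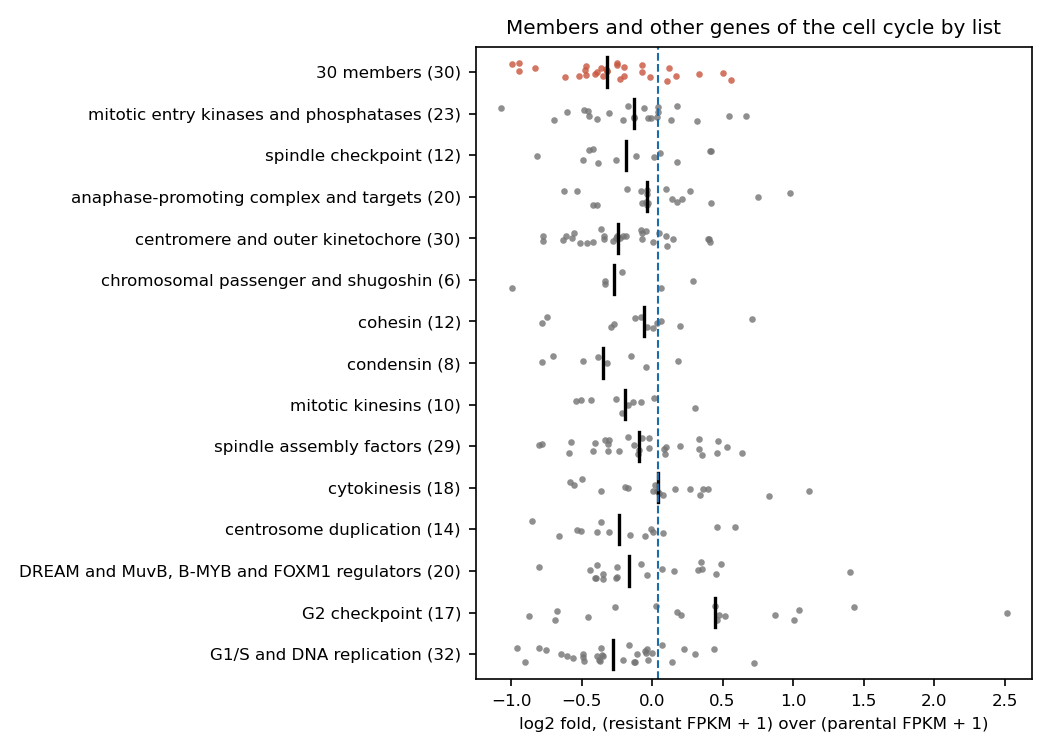
Log2 fold of (resistant FPKM + 1) over (parental FPKM + 1) for the 30 members and the measured genes of 14 lists, 1 point a gene, with a black bar at each median and a dashed line at the median of all tested genes, 0.04. The bars of the members, condensin and G1/S genes lie furthest left, and that of the G2 checkpoint list, 0.44, furthest right.

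Facts of the whole table bear on these values. Depth is unknown, since the values are FPKM. Over all listed genes the FPKM had a sum of 299594 for the parental line and 323932 for the clone. Of 10 glioma and astrocyte markers 5 were listed. These were VIM (632 and 804 FPKM), CD44 (83.1 and 161), NES (33.7 and 5.08), SOX2 (2.23 and 0.253) and OLIG2 (1.43 and 3.42). The astrocyte markers GFAP, S100B, AQP4, ALDH1L1 and SLC1A3 were not listed. Of 5 epithelial markers 4 were listed, with a summed level of 607 and 1609 FPKM, mostly KRT8 and KRT18, and EPCAM under 1 FPKM. The summed level of the listed markers was 77.8 and 33.3 for endothelial cells and pericytes (4 of 5 listed). That sum was mostly PDGFRB and RGS5, with PECAM1 and CDH5 under 1 FPKM in both libraries. It was 2.52 and 0.919 for immune cells (2 of 5) and 1.76 and 2.29 for neurons (1 of 4). The part of such differences in the mitotic genes was not tested.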

How the data were processed

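RNA of 2 cultures was sequenced with a stranded mRNA kit, per the labels. The deposited table gives FPKM per gene and library, made by the authors, and the authors' p-value and q-value, per the file headers. No source used here names the aligner, quantification tool, annotation, build or test. The members and lists were chosen with earlier results of these data known.

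Genes with 1 FPKM or more in either library were kept (13937), and log2 folds used a pseudocount of 1, which understates the change of low genes. A fold of 2 or 1.5 was counted beside the share of all tested genes, and no p-value was computed. The calling rule was tested on simulated data without noise, which checks the arithmetic only. It cannot show how often noise between 2 libraries passes a threshold. GENCODE 29 (GRCh38) gave coordinates and exons, and the deposited locus contained the GENCODE gene for all 30 members. Named genes were all members, the regulators listed, the neighbours of MKI67 and, per list, the 3 largest folds among genes of 5 FPKM or more. Alternatives were other pseudocounts, filters, scalings and thresholds. Python 3.11.15, numpy 2.4.6 and pandas 2.3.3 were used.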

Additional observations from a re-analysis of the deposited data

How the results depend on the processing

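The count of members at least 2-fold lower, 0 of 30, was the value that changed most. It was 2 with a pseudocount of 0.1 and 2 with the plain FPKM ratio (MKI67 and KIF20A, beside 7.38% and 7.40% of tested genes), 1 with median scaling (MKI67, beside 4.18%), and 3 with sum scaling and 3 with upper quartile scaling (MKI67, KIF20A and PRC1, beside 4.64% and 4.36%), since their log2 folds lay just short of the threshold. No member was 2-fold higher under any of these settings, nor with the 4-fold threshold in either direction. The count at 1.5-fold lower stayed at 5 or 6. The count at 1.5-fold higher was 0, or 1 (CENPE) with a pseudocount of 0.1 and with the plain FPKM ratio. The members' median was -0.42 with sum scaling, when that of all tested genes was -0.06, and the distance between them was -0.37, as against -0.36 without scaling. It moved by under 0.1 with each other pseudocount, filter and scaling, after subtracting the chromosome median or the local median, and without members whose exons overlap a listed gene. The last 2 were chosen after seeing the data. Below 0 lay 24 members, or 25 with sum scaling. In the 150 bases around the start, TTTGAA was held by 17 and CCAAT by 18 of 25 members. No replicate could be left out with 1 library a group, and unknown depth leaves the counting error of each value unknown.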

Other observations

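Tested genes outside the members that hold the same promoter letters leaned only slightly the same way. In the 150 bases around the start (100 before and 50 after), 173 such genes held both TTTGAA and CCAAT. Their median log2 fold was -0.01, with 87 below 0 and 13.3% lower by 1.5-fold or more. The 9374 tested genes without both had a median of 0.06 and 9.73% lower by 1.5-fold or more. The 12 members with both in those bases had a median of -0.32, with 11 below 0. The 13 members without both there had a median of -0.39, also with 11 below 0.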
